A study of Mus musculus with 30 samples.

Results

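The genes described here are 43 nucleolar and ribosome assembly genes, listed by name for their role, and 40 of them had a probe set whose annotation names that gene alone, out of 30142 genes tested. Nop56, Gnl3 and Ebna1bp2 share their probe set with another annotated gene and were not analysed here. The study hybridised RNA of whole uteri, taken from prepubertal females at 21 days of age, to 30 Affymetrix arrays that cover whole transcripts, with 10 groups of 3. The mice were Ex3aERKO, written KO below, which lack exon 3 of Esr1, the gene of estrogen receptor alpha, or wild type (WT). The KO groups received 250 ng of 17beta-estradiol (E2) in saline and were sampled after 2 h or 24 h, received 50 ug of insulin-like growth factor 1 (IGF1) in PBS and were sampled after 2 h, received the same dose of IGF1 at 0, 8 and 16 h and were sampled at 24 h, or received saline vehicle and were sampled at 24 h. The WT groups had the same 5 treatments, and every agent was given by intraperitoneal injection. There is 1 vehicle group per genotype, taken at 24 h, so a contrast of a 2 h group with vehicle also holds the time after injection. Likewise, every comparison of an IGF1 group with vehicle or with E2 also holds the solvent, PBS against saline. At 24 h such a comparison also holds the number and timing of injections. For IGF1, 24 h against 2 h compares 3 injections with 1. The labels do not say that the 3 samples of a group came from separate animals, so the p-values speak of the spread between these samples and no more, and the number of arrays limits the precision.

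Ribosomes are made in the nucleolus, where RNA polymerase I transcribes the ribosomal RNA precursor. Box C/D small nucleolar ribonucleoproteins (snoRNPs) methylate this RNA, box H/ACA snoRNPs convert uridines into pseudouridine, and the small subunit (SSU) processome folds and cleaves the part that becomes the 40S subunit, while another set of factors assembles the 60S subunit. Estrogen is known to make the immature uterus grow, and a rise in its RNA and protein synthesis is a long-known part of that response, as is local production of IGF1. The 40 genes fall into 7 roles: 3 subunits of RNA polymerase I (Polr1a, Polr1b, Polr1c), 3 box C/D proteins (Fbl, Nop58, Rrp9), 4 box H/ACA proteins (Dkc1, Gar1, Nhp2, Nop10), 5 nucleolar chaperones and regulators (Ncl, Npm1, Nolc1, Mybbp1a, Ddx21), 9 SSU processome factors (Wdr43, Wdr75, Wdr3, Utp20, Heatr1, Nop14, Noc4l, Imp4, Rcl1), 5 factors of 40S maturation (Rrp12, Tsr1, Nob1, Bysl, Ltv1) and 11 factors of 60S assembly (Bop1, Pes1, Wdr12, Nop2, Nop16, Noc2l, Noc3l, Rrp1b, Rrs1, Ftsj3, Grwd1).

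Genes of ribosome assembly are known targets of MYC, which binds the E-box CACGTG, so the 250 bases before the transcription start were searched on both strands in the RefSeq promoters of build GRCm38.p6, which hold 35 of the 40 genes in 39 promoters. CACGTG was found in 2 of the 39 promoters, or 5.13%, against 6.81% of the 18857 promoters of tested protein-coding genes and 6.02% of all 32851 promoters of the same length. The 2 promoters are those of Nop2, a methyltransferase that modifies 28S ribosomal RNA, and Imp4, a U3 snoRNP component of the SSU processome. They are shown with CACGTG in capitals, beside the promoters of Ddx21, the gene of the largest change after 2 h of E2 in WT, and of Dkc1, the gene of the largest difference between 24 h and 2 h of E2 in WT, which hold none of the motifs searched and are wholly in lower case. The windows are chr6:125131633-125131882 (plus strand) for Nop2, chr1:34439579-34439828 (plus strand) for Imp4, chr10:62602299-62602548 (minus strand) for Ddx21 and chrX:75095604-75095853 (plus strand) for Dkc1, each written 5′ to 3′ on the strand of its gene.
Nop2: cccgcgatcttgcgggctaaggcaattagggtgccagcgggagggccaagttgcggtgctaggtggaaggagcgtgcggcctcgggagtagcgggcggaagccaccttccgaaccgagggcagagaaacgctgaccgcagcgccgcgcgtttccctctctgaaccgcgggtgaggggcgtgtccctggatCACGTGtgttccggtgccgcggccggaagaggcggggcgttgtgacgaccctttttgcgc
Imp4: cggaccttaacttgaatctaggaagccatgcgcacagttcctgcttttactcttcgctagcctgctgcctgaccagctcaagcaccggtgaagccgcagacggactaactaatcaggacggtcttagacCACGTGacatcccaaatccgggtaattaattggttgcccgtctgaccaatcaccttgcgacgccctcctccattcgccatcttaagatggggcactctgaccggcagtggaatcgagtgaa
Ddx21: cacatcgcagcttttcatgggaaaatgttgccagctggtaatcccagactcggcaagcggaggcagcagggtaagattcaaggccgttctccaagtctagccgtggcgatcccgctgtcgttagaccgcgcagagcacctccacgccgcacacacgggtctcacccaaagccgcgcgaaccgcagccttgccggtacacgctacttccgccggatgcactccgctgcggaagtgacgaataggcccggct
Dkc1: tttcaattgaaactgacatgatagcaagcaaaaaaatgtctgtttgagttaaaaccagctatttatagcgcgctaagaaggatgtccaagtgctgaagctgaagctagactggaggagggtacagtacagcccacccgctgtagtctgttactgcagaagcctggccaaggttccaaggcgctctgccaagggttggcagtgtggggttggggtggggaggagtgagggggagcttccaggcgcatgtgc
In Nop2 the motif begins 60 bases before the start, and in Imp4 121 bases before it. The full palindromic estrogen response element was found in 0 of the 39 promoters, against 0.0424% of the promoters of tested genes, and the AP-1 motif TGANTCA in 0 of 39, against 6.24%. A match is a description of the letters and not a binding site, and no match says only that these letters are not in this window.

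The deposited values are on a log2 scale, and each array was given a floor, the level that 95% of 1225 olfactory receptor genes did not exceed, which lay at 5.69 to 6.57. Of the 40 genes, 35 lay above the floor on all 30 arrays, and the others were Nop2 and Rrp12 (29 arrays each), Grwd1 (28 arrays), Bysl (17 arrays) and Rrs1 (6 arrays). Esr1 lay at 9.38 to 10.41 in the KO arrays and at 11.44 to 12.73 in the WT arrays, and 7 to 9 of 9 genes that mark uterine tissue lay above the floor. Esr1 transcripts may still be read by probes outside the deleted exon. Several libraries stood apart. WT vehicle replicate 1 had an array weight of 0.166, the lowest of the 30, and a level of Xist, which is made from the inactive X chromosome, of 10.16 where the other arrays had 17.01 to 18.12. KO E2 24 h replicate 2 had a weight of 0.259, and KO vehicle replicate 1, which enters every KO contrast with vehicle, one of 0.391. After centring each gene, that vehicle array correlated over all genes with its own group at 0.463 and with KO E2 24 h at 0.71. KO IGF1 2 h replicate 3 had a weight of 0.437 and correlated over all genes with its own group at 0.0303 and with the KO E2 2 h group at 0.434. Counts that rest on these arrays are given with and without them.

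After 2 h of E2, WT uteri had higher levels than vehicle uteri of genes at every step of ribosome assembly. With group means fitted by limma over all 30 arrays and p-values adjusted by Benjamini-Hochberg over 30142 genes, 34 of the 40 genes rose at an adjusted p below 0.05 and 0 fell, where 9.84% of all genes rose and 9.18% fell. The median change of the 40 genes was 0.98 on the log2 scale, beside -0.09 over all genes, and 19 genes rose at least 2-fold, against 3.84% of all genes. In 38 genes all 3 E2 arrays lay above all 3 vehicle arrays, as in 15.2% of all genes. Without WT vehicle replicate 1, 32 genes rose and Ncl, a histone and RNA chaperone, was no longer called (0.41, adjusted p = 0.231, against 0.71 and 0.0243 with it). In these whole-uterus samples, a different share of a cell type and a different amount of RNA per cell cannot be told apart.

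Ddx21, an RNA helicase that acts in RNA polymerase I transcription and rRNA processing, lay at 12.35, 12.19 and 12.37 after 2 h of E2 in WT, against 9.19, 9.22 and 9.21 in WT vehicle uteri. The groups were far apart and each was tight, with SDs of 0.10 and 0.01. The change was 3.10 ± 0.42 on the log2 scale (3 arrays against 3, adjusted p = 6.65e-06 in limma). Each ± here is the SE of the fit, which takes 1 spread per gene over all 10 groups. For Ddx21 that spread includes KO IGF1 2 h, with an SD of 1.36. Nop58, a core box C/D protein, lay at 14.99, 14.96 and 14.92 after E2, against 12.71, 12.68 and 12.62 with vehicle, and rose by 2.29 ± 0.29 (adjusted p = 3.15e-06). Nolc1, a chaperone that binds snoRNPs and RNA polymerase I, lay at 10.69, 10.41 and 10.74, against 8.73, 8.18 and 8.27 with vehicle, again with no overlap, and rose by 2.22 ± 0.27 (adjusted p = 1.55e-06). The factors of 40S maturation all rose. Ltv1, which helps export and activate the pre-40S particle, lay at 11.42, 11.24 and 11.26 after E2, against 8.87, 9.15 and 9.18 with vehicle (2.24 ± 0.41, adjusted p = 0.000257). Bysl, which joins the pre-40S particle, lay at 7.90, 7.87 and 8.06 after E2, against 5.14, 5.60 and 5.98 with vehicle, where it was at the floor. Its fitted change of 2.37 ± 0.34 (adjusted p = 1.29e-05) therefore rests on a level within background, and against the floor of each array it was at least 3.54-fold higher.

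In the SSU processome, Heatr1, a subunit that also supports RNA polymerase I transcription, lay at 10.36, 10.25 and 10.47 after 2 h of E2, against 7.94, 8.40 and 8.50 with vehicle, and rose by 2.08 ± 0.31. Wdr43 lay at 13.29, 13.24 and 13.20, against 11.29, 11.28 and 11.30, and was far above vehicle on every array. Rcl1, which acts with the processome, was the 1 of its 9 members not called (0.54, adjusted p = 0.0678). Among the 60S factors, Nop2 lay at 10.19, 9.75 and 9.98 after E2, against 8.33, 8.04 and 8.05 with vehicle (1.83 ± 0.29, adjusted p = 4.6e-05). Rrp1b, known for its part in 60S assembly and in chromatin, had 8.84, 8.61 and 8.82, against 7.08, 7.09 and 7.06, and its change of 1.68 ± 0.14 had the smallest adjusted p of the 40 genes, 2.96e-09. Pes1 and Rrs1 were the 2 of 11 that were not called (0.54, adjusted p = 0.0502, and 0.50, adjusted p = 0.0581). The 3 subunits of RNA polymerase I rose less, by 0.78 for Polr1a, its largest subunit, 0.66 for Polr1b and 0.93 for Polr1c, which RNA polymerase III shares. Polr1a lay at 9.05, 9.0 and 9.06 after E2, against 8.08, 8.30 and 8.39 with vehicle.

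The box H/ACA proteins were split at 2 h. Nhp2, which binds the H/ACA RNA, lay at 9.04, 8.81 and 8.89 after E2, against 7.13, 7.07 and 7.15 with vehicle (1.80 ± 0.26, adjusted p = 1.91e-05), and Gar1 rose by 0.75. Dkc1, the pseudouridine synthase of the particle, lay at 9.35, 9.41 and 9.35 after 2 h of E2, against 9.39, 9.59 and 9.49 with vehicle. Its groups overlapped, and its change of -0.12 was the lowest of the 40 genes (adjusted p = 0.564). Nop10 was not called either (0.77, adjusted p = 0.0535), nor was Npm1, the abundant nucleolar chaperone nucleophosmin, which lay at 17.47, 17.62 and 17.49 after E2, against 17.37, 17.52 and 17.45 with vehicle (0.08, adjusted p = 0.625).

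**Figure D1:**
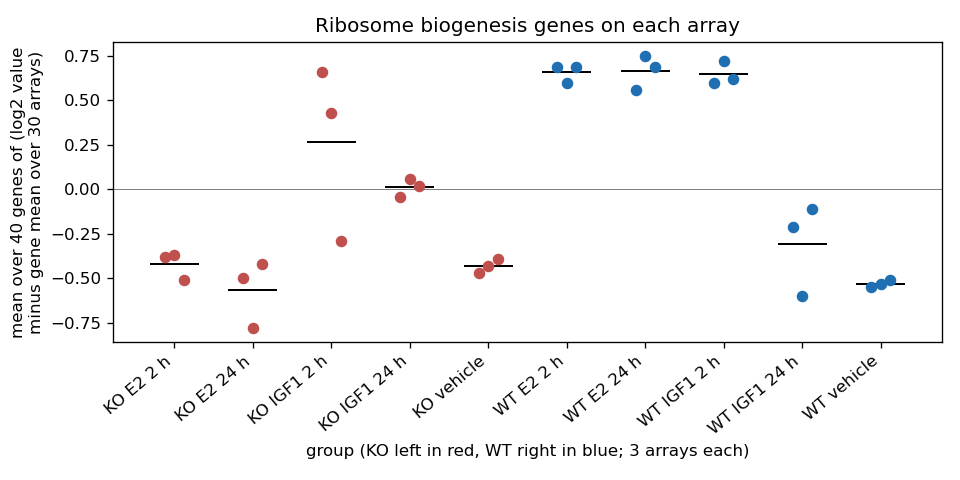
Mean level of the 40 ribosome biogenesis genes on each of the 30 arrays, each gene centred on its mean over all arrays (y axis, log2 scale), by group (x axis, KO groups in red on the left, WT groups in blue on the right); points are arrays and bars are group means. The WT arrays of E2 at 2 h (0.60 to 0.69), E2 at 24 h (0.56 to 0.75) and IGF1 at 2 h (0.60 to 0.72) lay above every WT vehicle array (-0.55 to -0.51), while KO IGF1 2 h arrays spread from -0.29 to 0.66.

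After 24 h of E2 the genes of ribosome assembly were still raised in WT uteri, with other members in the lead. Here 37 of the 40 genes rose and 0 fell, where 16.8% of all genes rose and 13.3% fell. Their median change was 1.11, beside -0.10 over all genes, and 25 rose at least 2-fold, against 7.93% of all genes. In 39 genes the 3 E2 arrays lay above the 3 vehicle arrays, as in 21% of all genes, and without WT vehicle replicate 1, 36 genes rose. The 3 genes not called were Rrp9, a U3-specific box C/D protein (0.24, adjusted p = 0.262), Nop14 (0.48, adjusted p = 0.0849) and Rrs1 (0.42, adjusted p = 0.0844). With each array centred on its own median, the median over all genes was 0.02 in place of -0.09 at 2 h and 0.01 in place of -0.10 at 24 h, and the members' medians were 1.10 and 1.22, with 38 genes rising at either time.

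All 4 box H/ACA proteins rose at 24 h. Nhp2 lay at 9.90, 10.30 and 10.34 after 24 h of E2 in WT, against 7.13, 7.07 and 7.15 with vehicle, and its change of 3.06 ± 0.26 was the largest of the 40 genes (adjusted p = 6.3e-09). Dkc1 lay at 11.01, 11.14 and 10.88, against 9.39, 9.59 and 9.49 with vehicle, with no overlap (1.52 ± 0.12, adjusted p = 1.32e-09). Nop10 rose by 1.61 ± 0.28 and Gar1 by 0.94. Fbl, fibrillarin, the methyltransferase of the box C/D particle, lay at 14.19, 14.54 and 14.38 after 24 h of E2, against 11.81, 12.12 and 11.96 with vehicle (2.40 ± 0.22, adjusted p = 1.87e-08). After 2 h of E2 it had been at 13.57, 13.12 and 13.45, between the 2 (1.41 ± 0.22 above vehicle, adjusted p = 4.53e-05). Ddx21 (2.45 ± 0.42), Ltv1 (2.18 ± 0.41), Bysl (2.05 ± 0.34, at least 2.84-fold against the floor) and Nop58 (1.75 ± 0.29) completed the 6 largest changes. Nop58 had 14.24, 14.54 and 14.49 after E2, with no array near the vehicle level.

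The factors of the PeBoW complex, which is needed to process the 60S part of the precursor, rose together at 24 h: Pes1 by 1.31 ± 0.19, Bop1 by 1.36 ± 0.19 and Wdr12 by 1.25 ± 0.12. Pes1 lay at 10.27, 10.49 and 10.47 after E2, against 8.99, 9.17 and 9.13 with vehicle, and Wdr12 at 9.02, 8.97 and 9.04, against 7.80, 7.81 and 7.67. Neither gene had an array near the other group. Noc4l, which acts in 40S assembly, rose by 1.51 ± 0.14 (adjusted p = 1.34e-08), with 8.56, 8.79 and 8.72 after E2, against 7.12, 7.29 and 7.13 with vehicle. Npm1 rose by 0.31 ± 0.09 (adjusted p = 0.0112), with 17.80, 17.73 and 17.75, against 17.37, 17.52 and 17.45, a small step with no overlap. Ncl rose by 1.0, Polr1a by 0.99, Polr1c by 1.12 and Polr1b by 0.39.

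**Figure D2:**
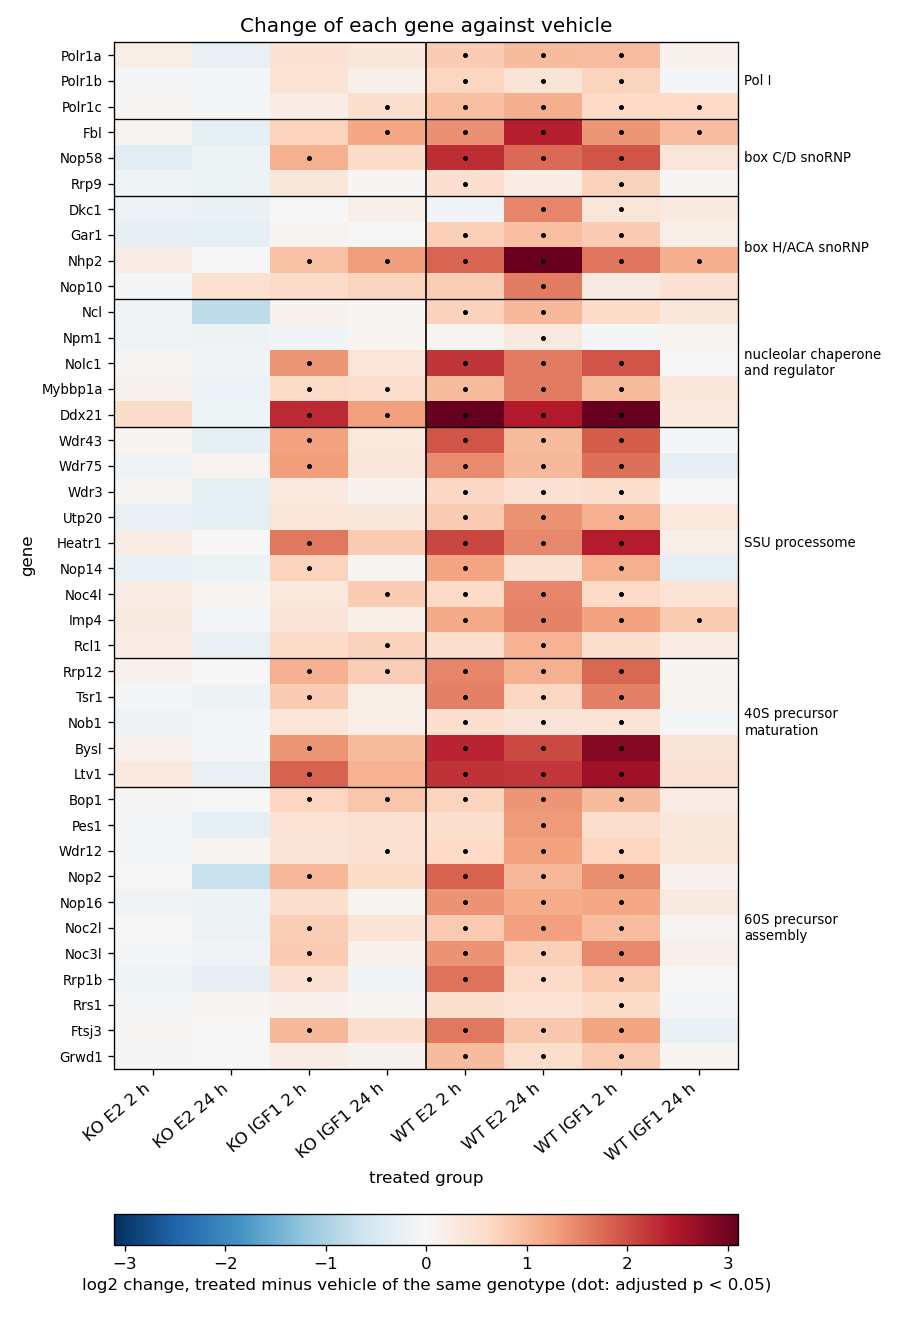
Change of each of the 40 genes (rows, grouped by role) in each comparison with the vehicle group of the same genotype (columns, KO on the left, WT on the right), coloured by the log2 change; a dot marks an adjusted p below 0.05 in limma. The 2 columns of E2 in KO have no dot, and the WT columns of E2 at 2 h, E2 at 24 h and IGF1 at 2 h have 34, 37 and 35.

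In the direct comparison of 24 h with 2 h of E2 in WT, 22 of the 40 genes were not called, and the called genes lay in both directions. Of the 40 genes, 10 were higher at 24 h than at 2 h, where 17% of all genes were, and 8 were lower, where 10.4% of all genes were. Under quantile normalization of the arrays the split was 7 higher and 13 lower. The largest difference was that of Dkc1, which was higher by 1.64 ± 0.12 at 24 h (adjusted p = 1.56e-10). It was followed by Nhp2 (1.26 ± 0.26, adjusted p = 0.000624), Fbl (0.99 ± 0.22, adjusted p = 0.00125), Noc4l (0.90 ± 0.14), Nop10 (0.84 ± 0.28), Pes1 (0.77 ± 0.19), Bop1 (0.68 ± 0.19), Wdr12 (0.63 ± 0.12), Mybbp1a (0.62 ± 0.16) and Utp20 (0.62 ± 0.21). By role these are 3 of the 4 H/ACA proteins, the C/D methyltransferase, the 3 PeBoW proteins, Mybbp1a, which represses RNA polymerase I transcription and binds MYB, and the processome factors Noc4l and Utp20.

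Of the genes that were lower at 24 h than at 2 h, Rrp1b differed most. It lay at 7.60, 7.73 and 7.69 after 24 h of E2, against 8.84, 8.61 and 8.82 after 2 h, with vehicle at 7.06 to 7.09, so it remained above vehicle at both times (-1.09 ± 0.14 between the times, adjusted p = 1.48e-06). Wdr43 (-0.97 ± 0.29), Tsr1, a GTPase-like factor of 40S maturation (-0.92 ± 0.19, adjusted p = 0.000445), Nop2 (-0.81), Ftsj3, a methyltransferase of the pre-60S particle (-0.80), Nop14 (-0.74), Noc3l (-0.63) and Grwd1, a chaperone of ribosomal protein L3 (-0.45), were the others. Tsr1 had 10.99, 11.17 and 11.01 at 24 h, against 12.07, 11.94 and 11.93 at 2 h, and did not overlap. Markers of cell division differed between the same groups. All 19 genes of a mitosis list were higher at 24 h than at 2 h of E2 in WT, with mean levels of 9.67 to 10.38 at 24 h and 6.64 to 6.94 at 2 h, and 12 of 13 epithelial markers were higher, with mean levels of 11.43 to 11.47 and 9.06 to 9.69. Their part in the difference was not tested. Against vehicle, at 6.56 to 6.80 for mitosis and 8.78 to 9.19 for the epithelium, 1 mitosis gene and 4 epithelial markers had risen at 2 h of E2, and 19 and 12 at 24 h. Of 11 stromal markers 5 fell at 2 h and 4 rose and 1 fell at 24 h.

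**Figure D3:**
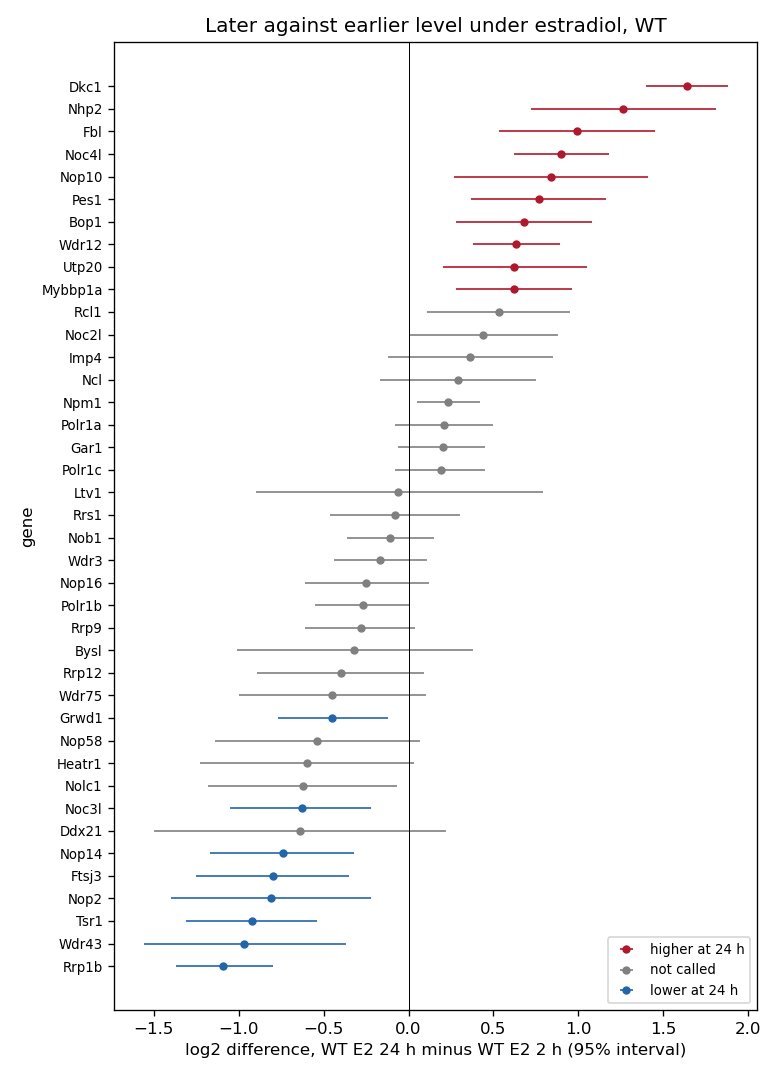
Difference between 24 h and 2 h of E2 in WT for each of the 40 genes (log2 scale, with 95% intervals), ordered by size; colours mark genes at an adjusted p below 0.05. Dkc1 (1.64) and Nhp2 (1.26) lead the 10 genes that were higher at 24 h, and Rrp1b (-1.09) leads the 8 that were lower.

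After 2 h of IGF1, WT uteri also had higher levels of these genes than vehicle uteri. Against vehicle 35 of 40 genes rose and 0 fell, where 9.54% of all genes rose and 7.64% fell, with a median change of 0.99 beside -0.08 over all genes. In 39 genes the IGF1 arrays lay above the vehicle arrays, as in 15.7% of all genes, and without WT vehicle replicate 1, 33 genes rose. Ddx21 lay at 12.32, 12.43 and 12.15 after IGF1, against 9.19, 9.22 and 9.21 with vehicle (3.09 ± 0.42, adjusted p = 2.3e-05). Bysl lay at 8.25, 8.54 and 8.49, against 5.14, 5.60 and 5.98 with vehicle, at the floor (2.85 ± 0.34, adjusted p = 6e-06, at least 4.94-fold), and Ltv1 rose by 2.62 ± 0.41. Heatr1 lay at 10.62, 10.84 and 10.67, against 7.94, 8.40 and 8.50 with vehicle, with no overlap (2.43 ± 0.31, adjusted p = 1.24e-05). Nop58 rose by 1.95 ± 0.29 and Nolc1 by 1.94 ± 0.27. Dkc1 rose by 0.38 ± 0.12 (adjusted p = 0.0258) and Rrs1, mostly within background, by 0.58 (adjusted p = 0.0302), and both lost the call without WT vehicle replicate 1. Ncl, Npm1, Nop10, Rcl1 and Pes1 were not called, with changes of -0.03 (Npm1) to 0.57 (Ncl). Of 13 epithelial markers 6 rose at the same time, with mean levels of 9.44 to 9.70 after IGF1 and 8.78 to 9.19 with vehicle. The mean level of 5 fat markers was 7.74 to 11.12 after IGF1 and 7.17 to 7.98 with vehicle. The part of both lists was not tested.

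At 2 h, the 40 genes differed little between E2 and IGF1 in WT. Both contrasts above share the vehicle arrays, so the 2 treatments were compared directly. Of the 40 genes 1 was higher with E2, where 2.8% of all genes were, and 1 was lower, where 2.77% were. Rrp1b lay at 8.84, 8.61 and 8.82 with E2, against 7.85, 7.96 and 7.89 with IGF1 (0.86 ± 0.14, adjusted p = 0.000154), and Dkc1 at 9.35, 9.41 and 9.35, against 9.81, 9.86 and 9.93 (-0.49 ± 0.12, adjusted p = 0.00854). Neither overlapped between the treatments. For 36 genes the 95% interval of the difference lay within 2-fold in either direction, and the intervals reached furthest for Ltv1, down to -1.23, and Rrp1b, up to 1.14. The difference of Ddx21 was 0.00. Mean levels of stromal markers were 10.77 to 10.83 with E2, against 11.39 to 11.94 with IGF1, and those of epithelial markers overlapped (9.06 to 9.69, against 9.44 to 9.70). Fat markers reached 9.78 with E2 and 11.12 with IGF1. The part of these lists was not tested.

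At 24 h the 2 treatments parted. After the 3 injections of IGF1, 4 of 40 genes were above vehicle in WT, where 3.32% of all genes were, and 0 were below, where 0.962% were; the median change was 0.19 beside -0.07 over all genes. The 4 were Nhp2 (1.13 ± 0.26, adjusted p = 0.0153), Fbl (0.96 ± 0.22, adjusted p = 0.0139), Imp4 (0.82 ± 0.23, adjusted p = 0.0477) and Polr1c (0.61 ± 0.13, adjusted p = 0.00777). Without WT vehicle replicate 1, or without WT IGF1 24 h replicate 3, or in a fit on the compared groups alone, 0 were called. Fbl lay at 12.94, 12.52 and 13.33 after IGF1, against 11.81, 12.12 and 11.96 with vehicle, and Nhp2 at 8.56, 7.69 and 8.49, against 7.13, 7.07 and 7.15. In both genes IGF1 replicate 2 was the lowest of its group and still above vehicle, and 7 genes in all had their IGF1 arrays above the vehicle arrays, as 11.7% of all genes had. Ddx21 lay at 9.73, 8.76 and 10.03 after 24 h of IGF1, on both sides of the vehicle level of 9.19 to 9.22 (0.30, adjusted p = 0.722). Against 2 h of IGF1, 28 of 40 genes were lower at 24 h, where 6.57% of all genes were, and 0 were higher, where 7.94% were. The largest of these differences were those of Ddx21 (-2.79 ± 0.42), Bysl (-2.46), Heatr1 (-2.24) and Ltv1 (-2.15). Bysl lay at 5.82, 5.84 and 6.23 after 24 h of IGF1, below the floor on replicates 1 and 2, which limits the size of its difference. Over the same groups 14 of 19 mitosis genes were above vehicle at 24 h of IGF1, with mean levels of 7.92 to 8.03 against 6.56 to 6.80, at a time when most of the 40 did not pass the test. Mean levels of 4 cell-type lists also lay above vehicle without overlap: epithelium at 9.50 to 9.69, against 8.78 to 9.19 (2 of 13 markers rose), and stroma at 12.60 to 12.68, against 11.37 to 12.09 (3 of 11). The others were myometrium at 12.39 to 12.68, against 11.29 to 11.94 (2 of 12), and neutrophils at 6.59 to 7.52, against 5.91 to 6.36 (0 of 6). Their part was not tested.

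In the direct comparison at 24 h in WT, 32 of 40 genes were higher with E2 than with IGF1, where 7.59% of all genes were, and the median difference was 0.93. The largest were Ddx21 (2.16 ± 0.42, adjusted p = 0.0011), with 11.55, 11.86 and 11.58 with E2, against 9.73, 8.76 and 10.03 with IGF1, and Nhp2 (1.93 ± 0.26). Ltv1 (1.71), Bysl (1.66), Nolc1 (1.60) and Fbl (1.44) followed, and the difference of Dkc1 (1.22 ± 0.12) had an adjusted p of 1.41e-07. For Bysl, IGF1 replicates 1 and 2 were below the floor. In 38 genes the arrays did not overlap, as in 17.5% of all genes, and without WT IGF1 24 h replicate 2, the lowest array of that group in Ddx21 and Nhp2, the count was 19. Mean levels of epithelial markers were 11.43 to 11.47 with E2, against 9.50 to 9.69 with IGF1, and of mitosis genes 9.67 to 10.38, against 7.92 to 8.03. Stromal markers overlapped (12.59 to 12.78, against 12.60 to 12.68). Myometrial (12.15 to 12.34, against 12.39 to 12.68) and endothelial markers (8.60 to 8.67, against 8.81 to 8.85) were lower with E2. The part of these lists was not tested.

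**Figure D4:**
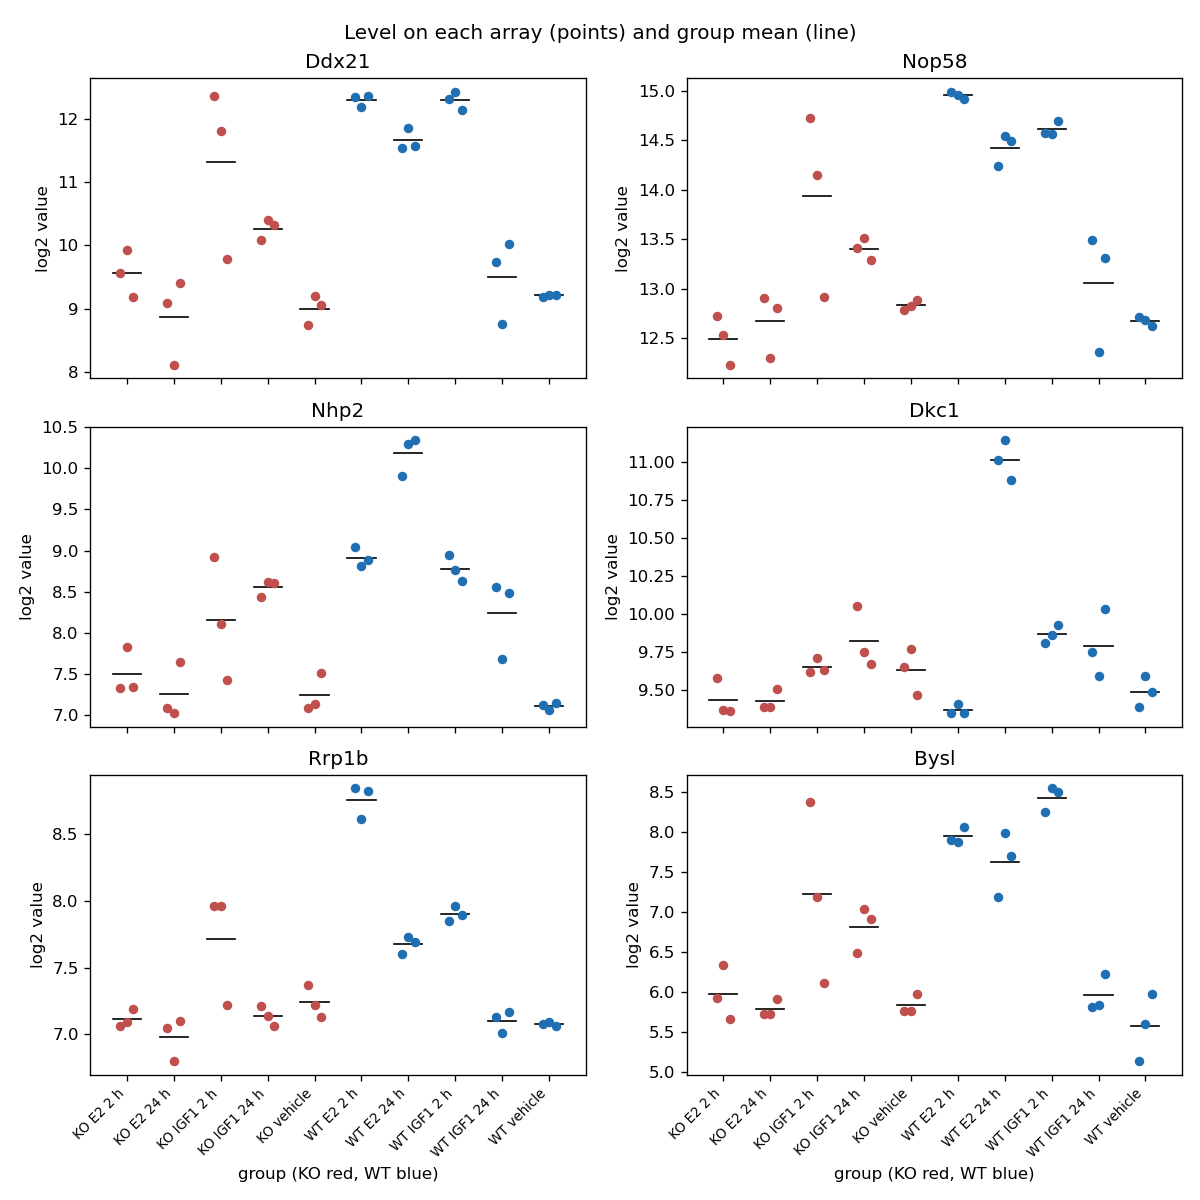
Levels of Ddx21, Nop58, Nhp2, Dkc1, Rrp1b and Bysl (y axes, deposited log2 values) on each array of the 10 groups (x axes, KO groups in red on the left, WT groups in blue on the right); points are arrays and bars are group means. Ddx21 lay between 12.15 and 12.43 on every WT array of E2 or IGF1 at 2 h and between 9.19 and 9.22 on the WT vehicle arrays, and Dkc1 lay at 10.88 to 11.14 on the WT E2 24 h arrays and at 9.35 to 10.05 on all others.

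None of the 40 genes passed the test with E2 in KO uteri at either time. At 2 h 0 of 40 rose and 0 fell in limma, where 0.259% of all genes rose and 0.106% fell, and at 24 h 0 rose and 0 fell, where 0% of the 30142 genes did. All 3 E2 arrays lay above vehicle in 1 gene at 2 h (5.94% of all genes) and in 0 at 24 h (9.36%), and below it in 4 at 2 h (11.3%) and 7 at 24 h (4.05%). At an unadjusted p below 0.05, 1 gene was lower at 2 h and 4 were lower at 24 h, and 0 were higher at either time. Of all genes, 12.2% at 2 h and 12.4% at 24 h passed that threshold in either direction. The median change was -0.03 at 2 h, beside -0.06 over all genes, and -0.15 at 24 h, beside 0.08 over all genes. Ddx21 lay at 9.56, 9.93 and 9.19 after 2 h of E2 in KO, against 8.74, 9.20 and 9.06 with vehicle, with overlap (0.56 ± 0.42, adjusted p = 0.604). Nop58 lay at 12.72, 12.53 and 12.23, against 12.78, 12.82 and 12.89 with vehicle, all below it by a small step (-0.33 ± 0.29, adjusted p = 0.666). At 24 h Nhp2 lay at 7.09, 7.03 and 7.65 after E2, against 7.09, 7.14 and 7.52 with vehicle, and Ncl, the gene of the largest negative change, at 14.53, 13.56 and 14.48, against 14.77, 15.11 and 15.06 (-0.79 ± 0.22, adjusted p = 0.172). KO E2 24 h replicate 2 was the lowest array in Ncl, and in Ddx21 and Nop2 as well. Without it 0 genes were called at 24 h and the change of Ncl was -0.48 (adjusted p = 0.682). Without KO vehicle replicate 1, 0 were called at either time. The 95% interval of the change lay within 2-fold in either direction for 38 of the 40 genes at 2 h and for 36 at 24 h.

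The difference between genotypes was itself tested, by subtracting the change in WT from that in KO. At 2 h of E2 this difference was below 0 at an adjusted p under 0.05 in 26 of 40 genes, where 4.39% of all genes were, and above 0 in none, where 3.61% were. The 6 of largest difference were Nop58 (-2.62 ± 0.41, adjusted p = 0.00017), Ddx21 (-2.53 ± 0.59, adjusted p = 0.00744), Bysl (-2.23 ± 0.47), Nolc1 (-2.19 ± 0.38), Ltv1 (-1.93 ± 0.58) and Wdr43 (-1.89 ± 0.41), and that of Rrp1b (-1.80 ± 0.20) had an adjusted p of 9.9e-07. At 24 h it was below 0 in 32 genes, where 12.2% of all genes were, and above 0 in none, where 9.96% were. Nhp2 (-3.06 ± 0.37, adjusted p = 4.18e-06), Fbl (-2.71 ± 0.31, adjusted p = 2.25e-06), Ddx21 (-2.58 ± 0.59), Ltv1 (-2.43 ± 0.58), Bysl (-2.10 ± 0.47) and Nop58 (-1.91 ± 0.41) led, and Dkc1 differed by -1.72 ± 0.16 (adjusted p = 2.05e-07). Centring each array on its median moved the median of this difference over all genes at 24 h to 0.00, where it was 0.19 as deposited, and the members' median to -1.47, where it was -1.28. Without WT vehicle replicate 1 the counts were 25 at 2 h and 30 at 24 h. They were 25 and 32 without KO vehicle replicate 1, and 28 at 24 h without KO E2 24 h replicate 2. Bysl lay below the floor on the vehicle arrays of both genotypes, which limits the size of its differences.

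The E2 groups of the 2 genotypes were also set against each other. At 2 h, 32 of 40 genes were lower in KO than in WT uteri, where 8.67% of all genes were, and 0 were higher, where 9.2% were. At 24 h, 38 were lower, where 19.3% of all genes were, and 0 higher, where 27.7% were, with a median of -1.23 beside 0.18 over all genes (-1.40 and 0.02 with centred arrays). Fbl, for example, lay at 12.20, 11.42 and 12.32 in KO and at 14.19, 14.54 and 14.38 in WT uteri after 24 h of E2 (-2.39). Without KO E2 24 h replicate 2 the difference of Fbl was -2.11, and 37 genes were lower in KO. In the vehicle groups 0 of 40 genes differed in either direction in limma, where 1.61% of all genes were higher and 1.3% lower in KO. At an unadjusted p below 0.05, 2 genes were higher and 0 lower, where 12.4% of all genes passed in either direction. Without replicate 1 of either vehicle group, 0 genes differed. The changes ran from -0.21 (Ddx21) to 0.39 (Utp20). In 5 genes the KO arrays all lay above the WT arrays, as in 6.86% of all genes, and in 0 all below, as in 7.41%, and the 95% interval lay within 2-fold for 39 of 40 genes. Of 13 epithelial markers 6 were higher in KO vehicle uteri (mean levels of 9.87 to 10.22, against 8.78 to 9.19 in WT). After 2 h of E2, mean levels of epithelial markers were 10.15 to 10.78 in KO, against 9.06 to 9.69 in WT. Those of stromal markers were 10.92 to 11.89, against 10.77 to 10.83, and mitosis genes overlapped (6.24 to 6.81, against 6.64 to 6.94). After 24 h of E2, all 19 mitosis genes and 8 of the 13 epithelial markers were lower in KO than in WT. Of 11 stromal markers 6 were lower (mean levels of 10.48 to 11.20 in KO and 12.59 to 12.78 in WT). Of 12 myometrial markers 8 were lower and 1 higher (10.08 to 11.48 in KO and 12.15 to 12.34 in WT). The part of these lists in the differences was not tested.

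After 2 h of IGF1 in KO uteri, 2 of the 3 arrays had raised levels of ribosome assembly genes and the other was near vehicle. Against KO vehicle 19 of 40 genes rose, where 4.19% of all genes did, and 0 fell, where 2.95% did, with a median change of 0.59 beside -0.04 over all genes. A fit on the 2 compared groups alone called 0 of the 40. It has fewer degrees of freedom and takes the spread of each gene from these 2 groups, where the main fit takes it over all groups. In KO IGF1 2 h the SD was 1.36 for Ddx21 and 1.08 for Heatr1, against 0.23 and 0.14 with KO vehicle. Not every gene spread so, as with Dkc1 (0.05, against 0.15). Against the mean of KO vehicle, the median change of the 40 genes on the single arrays was 0.89, 0.77 and 0.10 for replicates 1, 2 and 3, and 38, 36 and 18 genes lay above all 3 vehicle arrays. In 17 genes all 3 IGF1 arrays lay above vehicle, as in 8.31% of all genes, and in 0 all lay below it, as in 9.46%. Replicate 3 is the array that correlated poorly with its own group, and without it 29 genes rose. Without replicate 1 or replicate 2, 2 and 5 genes were called, and without KO vehicle replicate 1 or 2, 11 and 12. Ddx21 lay at 12.36, 11.82 and 9.78 after IGF1, against 8.74, 9.20 and 9.06 with vehicle (2.32 ± 0.42, adjusted p = 0.00216), and by 3.09 ± 0.31 higher without replicate 3 (adjusted p = 4.09e-07). Heatr1 lay at 10.61, 10.51 and 8.69, against 8.21, 8.48 and 8.25 (1.63 ± 0.31, adjusted p = 0.00287, 2.25 without replicate 3). In both genes all 3 IGF1 arrays were above vehicle, and replicate 3 was near it.

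Ltv1 rose by 1.82 ± 0.41 in the same comparison (adjusted p = 0.00866, 2.59 without replicate 3), Nolc1 by 1.38 ± 0.27 (adjusted p = 0.00388, 1.82 without it) and Wdr75, a processome subunit, by 1.30 ± 0.27 (adjusted p = 0.00487, 1.74 without it). Bysl lay at 8.37, 7.19 and 6.11 after IGF1, against 5.77, 5.77 and 5.98 with vehicle at the floor (1.38 ± 0.34, adjusted p = 0.0139, 1.94 without replicate 3, at least 2.20-fold with all 3 arrays). The 3 subunits of RNA polymerase I were not called, with changes of 0.24 (Polr1c) to 0.45 (Polr1a), and Dkc1 lay at 9.62, 9.71 and 9.63, against 9.65, 9.77 and 9.47 with vehicle, within its spread. All 19 genes that rose were among the 35 that rose in WT. With 35 of the 40 called in WT, most of any 19 members would be among them. The WT contrast used other arrays but the same estimate of the spread of each gene. The difference between the genotypes in the response to IGF1 at 2 h was called for 0 of 40 genes in limma. Of all genes 0.00664% were called in each direction. At an unadjusted p below 0.05, 12 genes were lower in KO and 0 higher, where 6.87% of all genes passed in either direction. In the IGF1 2 h groups themselves 1 gene, Tsr1, was lower in KO than in WT (-0.70), where 0.922% of all genes were, and without KO IGF1 2 h replicate 3 it was not (-0.37, adjusted p = 0.278). Tsr1 had 11.74, 11.50 and 10.61 in KO, against 11.89, 12.07 and 12.01 in WT. Against IGF1 at 2 h in KO, 20 of 40 genes were lower with E2 at 2 h, where 1.9% of all genes were, and 0 were higher. Without IGF1 replicate 3, 27 were lower. Among the 20 were Ddx21 (-1.76 ± 0.42, adjusted p = 0.0244), Ltv1 (-1.51), Nop58 (-1.44) and Wdr75 (-1.42). Without IGF1 replicate 1 or 2 that count was 0, and without E2 replicate 1, 2 or 3 it was 9, 7 and 6, and in a fit on the compared groups alone 0. Of 13 epithelial markers 3 rose after IGF1 in KO at 2 h, with mean levels of 10.22 to 10.78, against 9.87 to 10.22 with vehicle. Of 12 myometrial markers 3 rose (11.69 to 12.51, against 11.07 to 11.77). The mean level of 5 fat markers was 10.68, 10.13 and 9.15 on IGF1 replicates 1, 2 and 3, against 7.83, 7.41 and 9.72 with vehicle. The part of these lists was not tested.

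**Figure D5:**
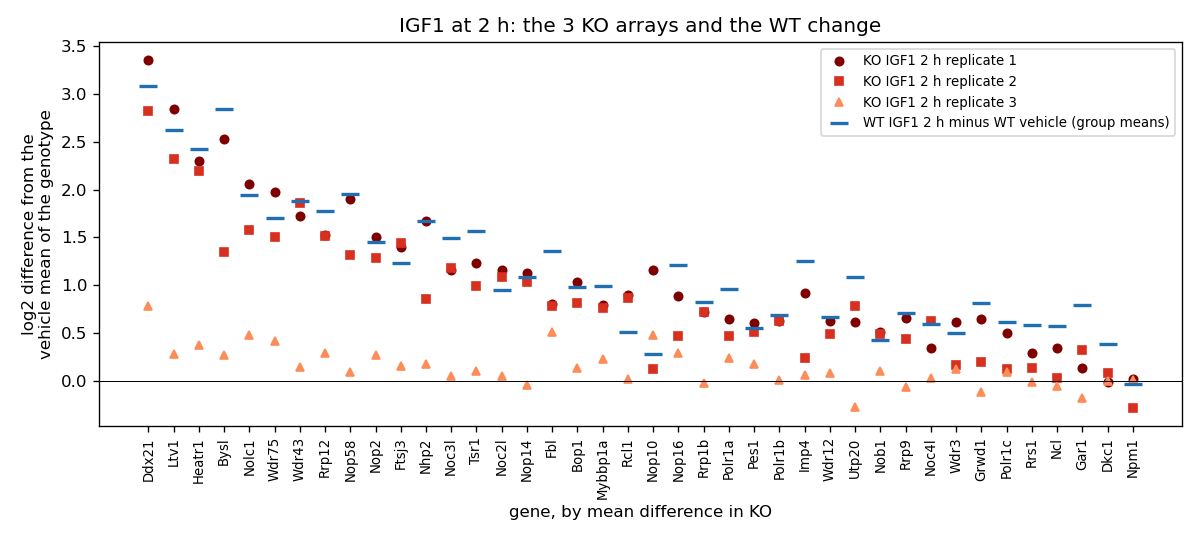
Level of each of the 40 genes on the 3 KO IGF1 2 h arrays minus the mean of the KO vehicle arrays (log2 scale), one set of points per array. Blue dashes are the changes in WT, the mean of WT IGF1 2 h minus the mean of WT vehicle. The medians over the 40 genes, which are not drawn, are 0.89 and 0.77 for replicates 1 and 2. Replicate 3 has a median of 0.10, close to the vehicle mean.

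After 24 h of IGF1 in KO, 10 of 40 genes were above vehicle, where 9.28% of all genes were, and 0 were below, where 4.35% were, and the median change was 0.36 beside -0.04. Nhp2 lay at 8.44, 8.62 and 8.61 after IGF1, against 7.09, 7.14 and 7.52 with vehicle (1.30 ± 0.26, adjusted p = 0.00157), and Fbl at 13.41, 13.76 and 13.27, against 12.06, 12.30 and 12.51 (1.19 ± 0.22, adjusted p = 0.000831). Ddx21 lay at 10.08, 10.40 and 10.32, against 8.74, 9.20 and 9.06 (1.27 ± 0.42, adjusted p = 0.0449). Of the 40 genes 3 rose at least 2-fold, against 3.73% of all genes. None of these 3 overlapped with vehicle, nor did 24 genes in all, as 17% of all genes did not. Bop1 (0.87 ± 0.19), Noc4l (0.78 ± 0.14, adjusted p = 0.000463) and Rrp12 (0.77), known in yeast as an export factor of both subunits, completed the 6 largest, and Rcl1 (0.72), Mybbp1a (0.55), Polr1c (0.49) and Wdr12 (0.48) were also called. Nhp2, Fbl and Polr1c were called at this time in both genotypes, 3 of the 10 in KO and 3 of the 4 in WT. Without KO vehicle replicate 2, 5 genes were called, without KO vehicle replicate 1, 7, and without KO IGF1 24 h replicate 3, 6. Over the same groups the mean level of neutrophil markers was 7.11 to 9.22, against 5.84 to 6.55 with vehicle (1 of 6 rose). Stromal markers lay at 11.67 to 11.93, against 10.70 to 11.57 (5 of 11 rose and 1 fell), and epithelial markers at 10.16 to 10.98, against 9.87 to 10.22 (3 of 13 rose). Mitosis genes lay at 6.80 to 8.10, against 6.10 to 6.84 (9 of 19 rose). The part of these 4 lists was not tested. The genotype difference in the response was called for 0 of 40 genes in limma, where 0% of all genes were higher and 0.00664% lower. At an unadjusted p below 0.05, 3 genes were higher in KO and 0 lower, where 6.7% of all genes passed in either direction. In the IGF1 24 h groups themselves 2 genes, Noc4l (0.52) and Bop1 (0.73), were higher in KO, where 1.39% of all genes were, and 0 or 1 were when single arrays of either group were left out. A fit on the compared groups alone called 0.

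At 24 h in KO, E2 in turn lay below IGF1 for 20 of 40 genes, where 11.3% of all genes did, and above it for none, where 10.2% did. Fbl (-1.50 ± 0.22, adjusted p = 8.56e-05), with 12.20, 11.42 and 12.32 with E2, against 13.41, 13.76 and 13.27 with IGF1, differed most, followed by Ddx21 (-1.39), Ltv1 (-1.32) and Nhp2 (-1.30). Without KO E2 24 h replicate 2 the count was 11, and without KO IGF1 24 h replicate 3 it was 13. With centred arrays it was 25, and the members' median was -0.65, where it was -0.53 as deposited. Between the times of IGF1 in KO, 7 genes were lower at 24 h than at 2 h, where 3.3% of all genes were, namely Nolc1 (-1.01), Wdr75 (-0.95), Wdr43 (-0.93), Noc3l (-0.67), Nop14 (-0.66), Tsr1 (-0.59) and Rrp1b (-0.58). Higher at 24 h was 1 gene, Noc4l (0.45, adjusted p = 0.038), where 5.68% of all genes were. Without KO IGF1 2 h replicate 3 the count was 17, all lower, without another array of the 2 groups it was 1 to 3, and in a fit on the compared groups alone 0. Between the times of E2 in KO 1 gene, Ncl, was lower at 24 h (-0.70 ± 0.22, adjusted p = 0.0481), where 3.34% of all genes were, and without KO E2 24 h replicate 2 it was not (-0.39, adjusted p = 0.339).

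The rest of the pathway was followed in 95 other genes of a list of 101, which cover the RNA polymerase I machinery, the SSU processome and 40S and 60S assembly. After 2 h of E2 in WT, 71 of them rose and 1 fell, where 9.84% of all genes rose and 9.18% fell, with a median change of 0.70. Mphosph10 (2.56 ± 0.30), Nol10 (2.31) and Utp4 (2.26), all of the SSU processome, rose most, and Taf1b, a subunit of the selectivity factor SL1 of RNA polymerase I, fell by 0.84. After 24 h of E2, 60 rose, where 16.8% of all genes did, and 0 fell, with a median of 0.54, led by Pno1 (2.12), Rrp7a (1.50) and Nop9 (1.43). After 2 h of IGF1 in WT 66 rose, where 9.54% of all genes did, and 2 fell, Nsa2 (-0.87) and Taf1b (-0.71), and after 24 h 1 rose, Rrp7a (0.75), where 3.32% of all genes did. In KO uteri 0 were called with E2 at either time. With IGF1 in KO for 2 h 28 rose, where 4.19% of all genes did, and 1, Las1l (-0.59), fell, where 2.95% did. In KO after 24 h of IGF1 19 rose and 1 fell, where 9.28% rose and 4.35% fell.

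The ribosomal protein genes, whose products the assembly factors put together, were followed as well. Of 79 listed, 34 had a probe set of their own. After 2 h of E2 in WT 4 of the 34 rose, near the 9.84% of all genes that did, with a median change of 0.04, Rps9 among them (0.86). After 24 h 12 rose, where 16.8% of all genes did, with a median of 0.31, led by Rpsa (1.22 ± 0.27), Rpl8 (1.12) and Rpl27 (0.89). After IGF1 in WT 1 rose at 2 h, where 9.54% of all genes did, and 1 at 24 h, where 3.32% did. In KO 0 were called with E2 at either time, 1 rose after 2 h of IGF1, where 4.19% of all genes did, and 11 after 24 h, where 9.28% did, with a median of 0.32. Of 9 measured genes of the Myc network, 2 rose and 2 fell after 2 h of E2 in WT (median -0.02), and 1 rose and 2 fell after 24 h (-0.11). With IGF1 in WT 1 rose and 3 fell after 2 h (-0.17), and 1 fell after 24 h (-0.16). In KO 1 rose and 1 fell after 2 h of IGF1 (-0.14), 2 fell after 24 h of IGF1 (-0.18) and 0 were called with E2. Myc itself rose in WT by 1.17 ± 0.27 after 2 h of E2 (adjusted p = 0.0023), by 1.33 after 24 h of E2 (adjusted p = 0.000491) and by 1.48 after 2 h of IGF1 (adjusted p = 0.000349), and its change after 24 h of IGF1 was 0.29 (adjusted p = 0.58). In KO it rose after 2 h of IGF1, by 1.27 (adjusted p = 0.0058), and its changes with E2 were -0.35 at 2 h (adjusted p = 0.615) and 0.48 at 24 h (adjusted p = 0.47). After 24 h of IGF1 in KO, 0 of the 9 genes, Myc included, were called higher. Mxi1, which competes with MYC for its partner MAX, fell in WT by 1.56 after 2 h of E2, by 0.91 after 24 h of E2 and by 2.29 after 2 h of IGF1, and in KO by 1.24 after 2 h and by 1.11 after 24 h of IGF1. These contrasts share vehicle arrays within a genotype, and the part of Myc or Mxi1 in the levels of the assembly genes was not tested.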

How the data were processed

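Per the labels' protocols, whole uteri were lysed in Trizol, RNA was cleaned on RNeasy columns and 300 ng was labelled with the WT Plus kit. The values were used as the authors deposited them, as log2 values of 72688 probe sets on 30 arrays. How they were normalized and summarized, and with which software, is not given in the sources used here. An annotation names 1 gene for 30604 probe sets, which were kept, several for 2146 and none for 39938. After 827 symbols were updated, 30142 genes remained, of which 355 had more than 1 probe set and were represented by the brightest on average. Genes of close sequence may share probes.

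Group means over all 30 arrays were fitted with limma 3.58.1 in R 4.3.3 (lmFit, then eBayes, with 20 residual and 3.66 prior degrees of freedom), with data.table (version 1.17.8) for reading. P-values were adjusted by Benjamini-Hochberg within each of 25 comparisons over all genes and called below 0.05. The scripts were tested on simulated data. The array medians ran from 6.17 to 6.47, and each array correlated with the others of its group at 0.974 to 0.994 on average. "At least" folds set a group mean against the floor of the other group's arrays where the gene lay below it. Intervals are 95% intervals of limma.

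The members, the lists and the named-gene rule were chosen with earlier results of these data known. Named were the 6 called members of largest change that do not overlap between arrays in each comparison with vehicle, the 6 of largest genotype difference, members of each role, members called against the common direction, and at most 3 genes of other lists per direction. Same-numbered replicates were not paired: the correlations of their deviations from the group means ran from -0.285 to 0.433, with means of -0.0087, -0.0012 and 0.0289 for numbers 1, 2 and 3. Alternatives were centring or quantile normalization of the arrays, a filter on dim genes that kept 18434 of the genes, array weights, a replicate block, a fit on the compared groups alone, leaving out each array, and leaving out 3 arrays at once, which was chosen after seeing the data.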

Additional observations from a re-analysis of the deposited data

Results flagged for a closer look

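The change with E2 differed between the genotypes in the interaction test of limma for 26 genes at 2 h and for 32 genes at 24 h, all with the lower change in KO. At 2 h the largest differences, with the change in WT subtracted from that in KO, were those of Nop58 (-2.62), Ddx21 (-2.53), Bysl (-2.23), Nolc1 (-2.19), Ltv1 (-1.93) and Wdr43 (-1.89). At 24 h they were those of Nhp2 (-3.06), Fbl (-2.71), Ddx21 (-2.58), Ltv1 (-2.43), Bysl (-2.10) and Nop58 (-1.91). Between the times of E2 in WT, 10 genes were higher and 8 lower at 24 h than at 2 h. Between the times of IGF1 in WT, 28 genes were lower at 24 h than at 2 h. Groups of 3 arrays were not tested for single outlying arrays.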

How the results depend on the processing

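Of 200 counts recomputed with all arrays, or without the 3 arrays that stood apart, 168 stayed within 1.5 times the reported count. Of 716 recomputed values of 46 named changes, 661 stayed on the same side of the threshold, 55 missed it and 0 reversed. The spread of each gene comes from all groups in the main fit, but only from the compared groups where these are fitted alone. A fit on the compared groups alone, which has fewer degrees of freedom, gave 0 genes for IGF1 24 h in WT, IGF1 2 h in KO, KO against WT after IGF1 at 2 h and at 24 h, E2 against IGF1 at 2 h in KO, and 24 h against 2 h of E2 and of IGF1 in KO, and 4 for E2 against IGF1 at 2 h in WT. Array weights gave 8 for IGF1 24 h in WT, 1 for KO against WT vehicle, 0 and 6 for KO against WT after IGF1 at 2 h and at 24 h, 4 for E2 against IGF1 at 2 h in WT and 0 for 24 h against 2 h of E2 in KO. Centred arrays gave 0 for KO against WT after IGF1 at 2 h, 13 for E2 against IGF1 at 2 h in KO, and 0 and 4 for 24 h against 2 h of E2 and of IGF1 in KO, the 4 all lower. Quantile normalization gave 2 for IGF1 24 h in WT and 0 for 24 h against 2 h of E2 in KO. The filter on dim genes gave 2 for KO against WT after IGF1 at 2 h and 0 for 24 h against 2 h of E2 in KO.

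The replicate block gave 0 for KO against WT after IGF1 at 2 h, 13 for E2 against IGF1 at 2 h in KO, and 0 and 5 for 24 h against 2 h of E2 and of IGF1 in KO, and the other counts stayed within 1.5 times, with 34, 37 and 35 for E2 2 h, E2 24 h and IGF1 2 h in WT. The numbers did not pair the samples.

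Without the 3 arrays the counts were 30 for IGF1 2 h and 17 for IGF1 24 h in KO, 0 and 8 for KO against WT after IGF1 at 2 h and at 24 h, and 0 and 19 for 24 h against 2 h of E2 and of IGF1 in KO. Leaving out single arrays gave 0 to 5 for IGF1 24 h in WT, 2 to 29 and 5 to 9 for IGF1 2 h and 24 h in KO, 0 to 7 and 0 to 1 for KO against WT after IGF1 at 2 h and at 24 h, 0 to 1 for the genotype difference in the response to IGF1 at 2 h, 19 to 32 for E2 against IGF1 at 24 h in WT, 0 to 27 and 11 to 18 for E2 against IGF1 at 2 h and 24 h in KO, and 0 to 2 and 1 to 17 for 24 h against 2 h of E2 and of IGF1 in KO. The 7 came without KO IGF1 2 h replicate 1. In WT, E2 2 h kept 32 to 33 genes, E2 24 h 34 to 37 and IGF1 2 h 32 to 35. Where a shift is not explained by fewer samples or genes, the cause was not tested. Levels near the floor, as in Bysl and Rrs1, limit their changes.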
